A study of Mus musculus with 2 samples.

Results

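The ATP-binding cassette (ABC) transporter family was examined in colon mucosal scrapings of Hif-2αΔIE and Hif-2αF/F mice. Members were the probe sets whose platform gene symbol begins with Abca, Abcb, Abcc, Abcd, Abce, Abcf or Abcg and a number, with no expression value used in the choice. There were 92 such probe sets for 45 genes, of 45101 probe sets and 18193 genes on the array. Hif-2αΔIE mice lack Epas1, the gene of the hypoxia-inducible factor HIF-2α, in the intestinal epithelium, as the label is read from knowledge of this model, and Hif-2αF/F mice carry the conditional alleles undeleted. Both groups were on a C57BL/6 background, aged 6 to 8 weeks per the sample labels (7 weeks in the design text), and both had received 3% dextran sulfate sodium (DSS), which injures the colonic mucosa, for 3 days. The design text counts 5 Hif-2αΔIE and 6 Hif-2αF/F mice, yet each genotype is represented by 1 array; the sources used here do not say whether RNA was pooled or which promoter drives Cre. With 1 array a group the data allow no test and no standard error, so every difference below is a difference between these arrays.

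ABC proteins bind and hydrolyse ATP, and most of them use the energy to move a substrate across a membrane. Subfamilies A to D and G hold membrane transporters of lipids, sterols, drugs, conjugated anions, bile salts, porphyrins and fatty acids, whereas the E and F proteins have no membrane-spanning part and act on ribosomes. In the gut epithelium, ABC transporters at the luminal surface return xenobiotics and plant sterols to the lumen, and those at the basolateral surface pass cholesterol and organic anions towards the blood.

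Expression is given in log2 units from RMA (robust multi-array averaging). A difference is the ΔIE value minus the F/F value in these units, so that a negative value means lower in ΔIE. The brighter Epas1 probe set read 11.77 in ΔIE and 11.90 in F/F, and the dimmer read 7.15 in ΔIE and 6.98 in F/F; their place relative to the deletion is not known here. Control probe sets for Cre recombinase read 7.86 to 10.01 on the ΔIE array and 2.92 to 4.22 on the F/F array. Of the 16 colon epithelium markers, all 16 reached the expression filter, with a mean of 12.42 in ΔIE and 12.18 in F/F. The filter asked that a gene reach 6.11, the median of all probe set means, on at least 1 array. It was passed by 47 of the 92 ABC probe sets and by 29 of the 45 ABC genes, each gene being represented by its brightest probe set.

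Sequences around the transcription start are shown for 2 genes lower in ΔIE (Abca1, Abcc4) and 2 higher (Abcb1a, Abcb6). They are shown because the mice differ in a HIF subunit that binds short DNA motifs. Abcb1b is added as the closely related neighbour of Abcb1a. The windows are from RefSeq, build GRCm38.p6, each 300 bases long from 250 before to 50 after a start, written 5′ to 3′ on the gene's strand. Capitals mark the core letters of a HIF binding site, ACGTG or GCGTG, read on both strands. Abca1 lies at chr4:53159846-53160145 (minus strand), Abcc4 at chr14:118706170-118706469 (minus strand, the upstream of its 2 windows), Abcb1a at chr5:8566841-8567140 (plus strand), Abcb1b at chr5:8797897-8798196 (plus strand) and Abcb6 at chr1:75180343-75180642 (minus strand).
Abca1: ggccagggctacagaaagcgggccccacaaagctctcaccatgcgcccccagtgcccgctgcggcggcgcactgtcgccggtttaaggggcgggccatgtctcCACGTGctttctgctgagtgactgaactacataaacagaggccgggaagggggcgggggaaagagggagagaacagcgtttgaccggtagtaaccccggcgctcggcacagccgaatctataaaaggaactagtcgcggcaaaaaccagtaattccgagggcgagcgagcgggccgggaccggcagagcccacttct
Abcc4: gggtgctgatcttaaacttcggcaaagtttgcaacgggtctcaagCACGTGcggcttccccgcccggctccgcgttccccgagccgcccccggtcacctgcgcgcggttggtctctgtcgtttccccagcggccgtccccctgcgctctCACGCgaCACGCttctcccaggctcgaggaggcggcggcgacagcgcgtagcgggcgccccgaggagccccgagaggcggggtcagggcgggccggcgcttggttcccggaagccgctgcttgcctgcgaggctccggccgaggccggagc
Abcb1a: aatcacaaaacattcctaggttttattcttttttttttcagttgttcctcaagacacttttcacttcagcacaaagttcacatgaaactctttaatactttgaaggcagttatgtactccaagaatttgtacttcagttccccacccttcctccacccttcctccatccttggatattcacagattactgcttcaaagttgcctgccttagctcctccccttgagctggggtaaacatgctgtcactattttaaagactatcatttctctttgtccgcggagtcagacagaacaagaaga
Abcb1b: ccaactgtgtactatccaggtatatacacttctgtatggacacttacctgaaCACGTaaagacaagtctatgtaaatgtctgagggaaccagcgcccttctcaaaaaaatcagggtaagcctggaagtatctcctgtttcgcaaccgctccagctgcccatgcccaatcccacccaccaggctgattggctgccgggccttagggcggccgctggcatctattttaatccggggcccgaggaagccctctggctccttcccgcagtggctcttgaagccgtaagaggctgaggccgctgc
Abcb6: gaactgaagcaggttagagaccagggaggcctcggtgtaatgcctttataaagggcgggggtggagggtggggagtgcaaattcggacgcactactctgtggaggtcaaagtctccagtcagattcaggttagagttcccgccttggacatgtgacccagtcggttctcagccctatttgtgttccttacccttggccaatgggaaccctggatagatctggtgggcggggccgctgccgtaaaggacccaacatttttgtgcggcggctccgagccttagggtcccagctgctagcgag
The core letters occurred 2 times in the Abca1 window, as the 2 strands of a single CACGTG, 4 times in the Abcc4 window, 2 of them in a CACGTG, and 1 time in the Abcb1b window. They occurred 0 times in the windows of Abcb1a and Abcb6 and 0 times in the other Abcc4 window. Among the other genes past 1.5-fold, the windows of Abcg5 and Abcc9, both lower in ΔIE, held them 0 times, and those of Abca8a and Abca12, both higher, held them 2 times and 1 time. For Abcg1, also lower, no window was available. Windows with and without the letters thus occurred among lower and among higher genes. RefSeq gave 42 windows for 35 of the 45 member genes. Of these windows 21 (50%) held the core letters, against 43.8% of all 32851 windows, and 5 (11.9%) held CACGTG, against 7.15% of all. A match describes the letters only, and no binding was measured.

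Across the family, differences went both ways. At a difference of at least 1.5-fold (0.58 on the log2 scale), 5 of the 29 genes kept (17.2%) were lower in ΔIE and 4 (13.8%) were higher. Over all 11899 genes kept, 10.6% were lower and 4.37% were higher by that measure. In either direction the count was 9 of 29 (31.0%) for ABC genes, against 15% of all genes. At 2-fold, Abca1 and Abcc4 were lower and Abca12 was higher, that is 2 and 1 of the 29, against 5.3% lower and 1.15% higher of all genes. Abca12 passed the filter on the ΔIE array only. Where both arrays had to pass, 27 ABC genes were left, 5 of them lower and 3 higher at 1.5-fold and 2 lower and 0 higher at 2-fold, against 9.01% lower and 4.14% higher of all 11280 such genes at 1.5-fold. The median over the ABC genes kept was 0.04, with quartiles of -0.26 and 0.35, against a median of 0.02 and quartiles of -0.18 and 0.19 over all genes. The family median thus lay inside the quartiles of all genes, and the family's own quartiles lay farther apart than those. By probe sets, 7 of the 47 that reached the filter were lower and 6 were higher at 1.5-fold (14.9% and 12.8%), against 9.02% and 4.03% of all 20253 such probe sets.

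**Figure D1:**
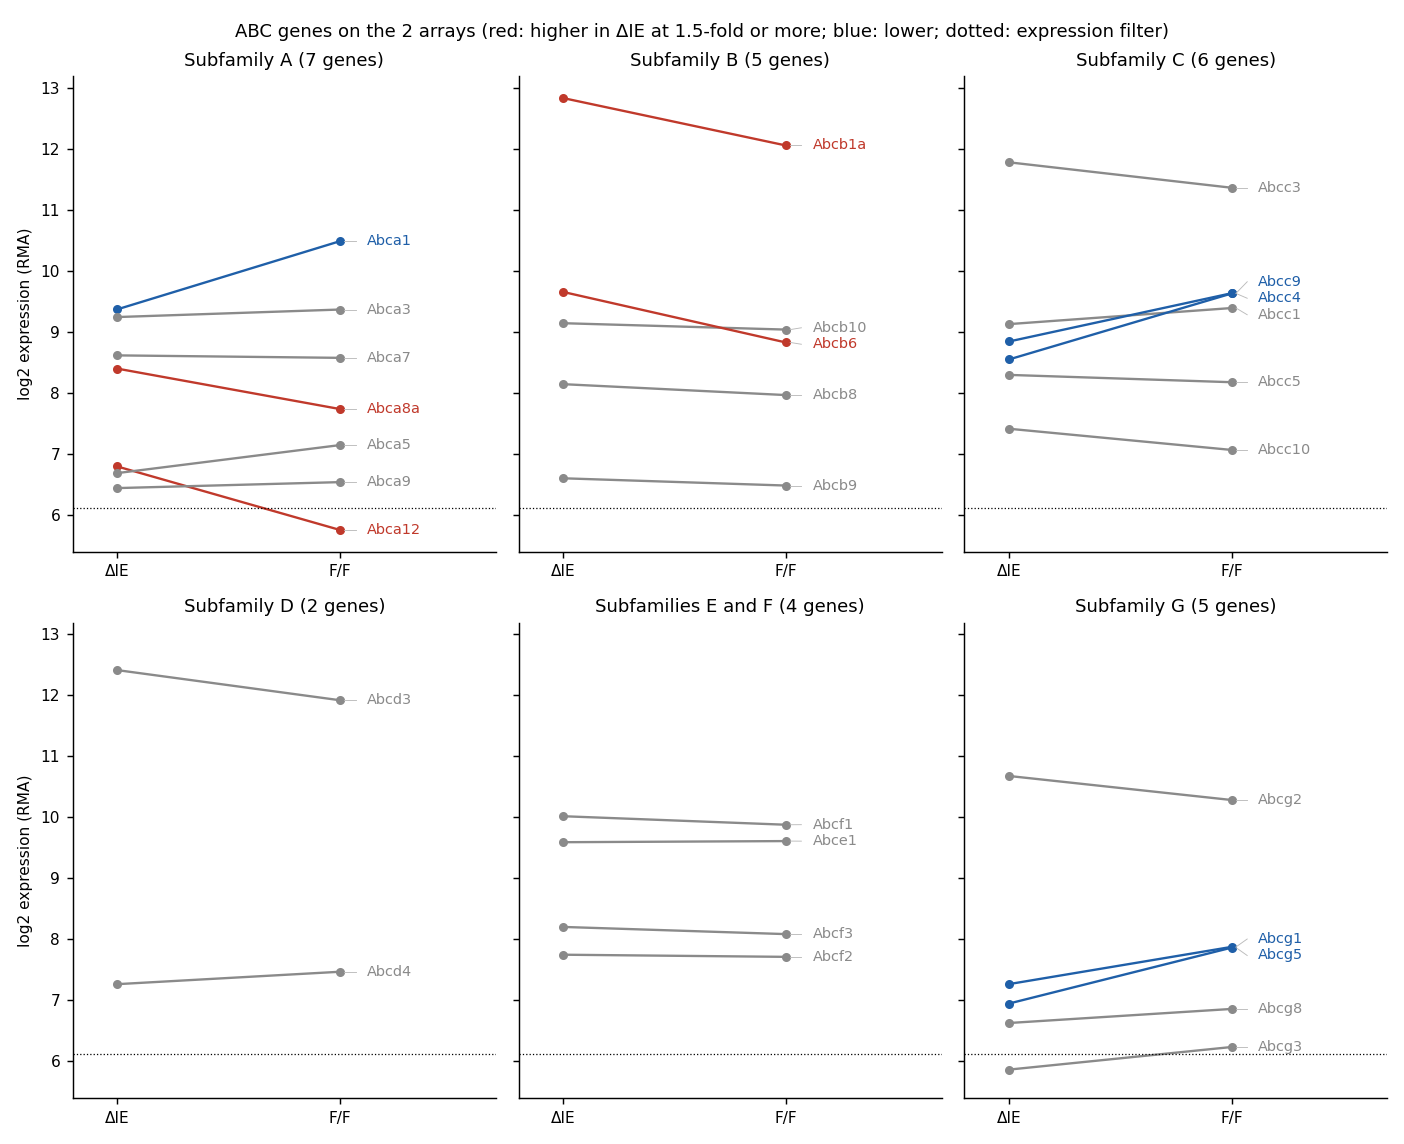
Log2 expression (vertical axis, RMA) of each ABC gene kept on the ΔIE array (left point) and the F/F array (right point), in a panel per subfamily. Blue lines are the 5 genes at least 1.5-fold lower in ΔIE, red lines the 4 at least 1.5-fold higher, grey lines the other 20, and the dotted line is the expression filter of 6.11; 1 array per genotype, so no error is drawn.

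**Figure D2:**
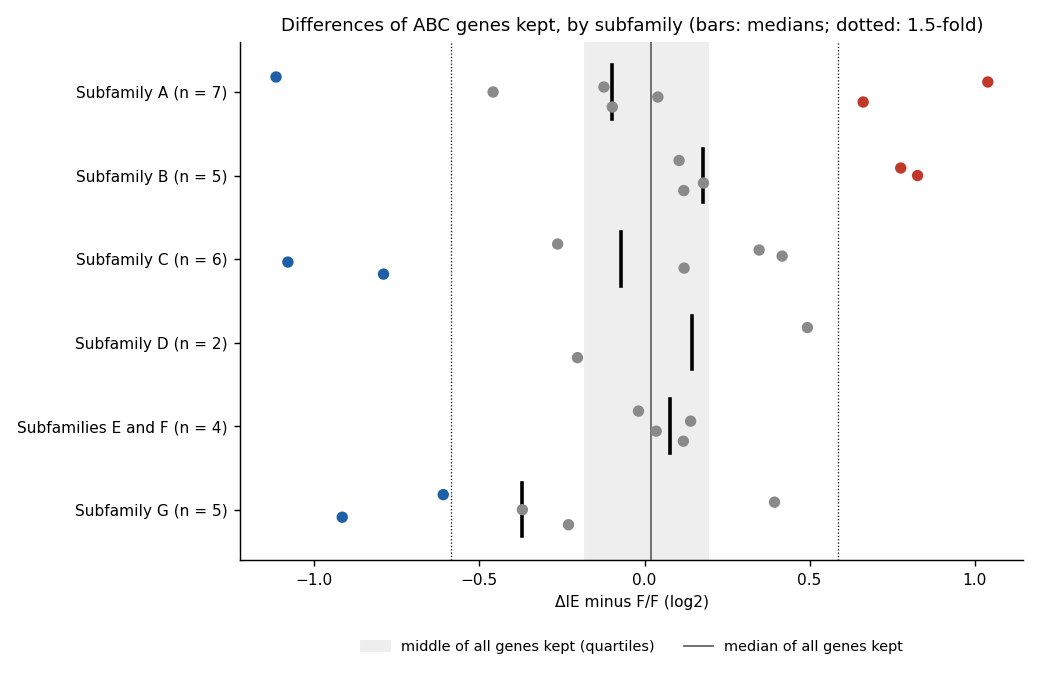
Differences, ΔIE minus F/F (log2, horizontal axis), of the 29 ABC genes kept by subfamily, each point a gene and each bar a subfamily median. The grey band spans the quartiles of all genes kept (-0.18 to 0.19), and the line inside it is their median (0.02). Dotted lines mark 1.5-fold. The 5 subfamily B genes kept lie above 0, with Abcb8, Abcb9 and Abcb10 inside the band, and 4 of 5 genes of subfamily G lie below 0.

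Subfamilies differed in where their members lay. All 5 subfamily B genes kept were above 0, with a median of 0.18 and a range of 0.10 to 0.83. That median and the values of Abcb8, Abcb9 and Abcb10 lay inside the quartiles of all genes (-0.18 to 0.19). Only Abcb1a and Abcb6 of the subfamily passed 1.5-fold, and Abcb1b, Abcb4 and Abcb11 were below the filter and not counted. In subfamily G, 4 of 5 were below 0, with a median of -0.37 and a range of -0.92 to 0.39. That median is the value of Abcg3, which passed the filter on the F/F array only; over the 4 genes that passed on both, 3 were below 0 and the median was -0.42. Subfamily A (7 genes, median -0.10) ran from -1.12 for Abca1 to 1.04 for Abca12 and subfamily C (6 genes, median -0.07) from -1.08 to 0.42, so that their medians describe them poorly. The 3 subfamily F genes lay between 0.04 and 0.14 and the subfamily E gene at -0.02, inside the quartiles of all genes. Of all genes kept, 52.7% were above 0 and 46.5% below. With so few genes, the medians of subfamilies A, B, C, D and G moved by over 0.10 under at least 1 alternative setting.

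Of 3 genes of cholesterol and phospholipid efflux that were kept, 2 were lower in ΔIE at 1.5-fold, against 10.6% of all genes kept. Abca1, which loads cholesterol and phospholipid onto lipid-poor apolipoprotein A-I, read 9.37 in ΔIE and 10.48 in F/F, a difference of -1.12 (2.17-fold lower). It ranked 516 from the lowest among 11899 genes. Its 2 other probe sets were below the filter on both arrays, at 4.34 and 3.74 in ΔIE against 4.88 and 3.84 in F/F, and averaging all 3 gave -0.59. Abcg1, which passes cholesterol to mature high-density lipoprotein, read 7.26 in ΔIE and 7.87 in F/F, a difference of -0.61 (1.53-fold lower). That is just past 1.5-fold: it was -0.57 after median centring of the arrays and -0.48 with its probe sets averaged. Abca7, a related lipid transporter of phagocytes and brain, read 8.61 in ΔIE and 8.57 in F/F. Abcg4, a neural relative of Abcg1, was below the filter on both arrays, and its 2 probe sets differed by 0.05 and 0.78.

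Both sterol exporters of the luminal membrane were below 0, as were 46.5% of all genes kept. Abcg5 and Abcg8 form a dimer that returns plant sterols and cholesterol to the lumen. Abcg5 read 6.94 in ΔIE and 7.86 in F/F, a difference of -0.92 (1.89-fold lower), and Abcg8 read 6.63 in ΔIE and 6.86 in F/F, a difference of -0.23. The 2 genes are neighbours that run head to head on chromosome 17. By the Abcg8 window nearer to Abcg5, the RefSeq starts lay 110 bases apart and the start windows shared 209 bases. RefSeq also gave another Abcg8 window, at chr17:84676052-84676351, which did not overlap that of Abcg5. Each difference rests on a single probe set, and only that of Abcg5 passed 1.5-fold.

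The other genes of cholesterol handling gave a mixed picture. Of 18 listed, 14 were matched and 12 kept, with a median of -0.07. At 1.5-fold 2 were lower and 0 were higher, against 10.6% and 4.37% of all genes kept. Apoe, an apolipoprotein that accepts cholesterol from ABC transporters, read 10.26 in ΔIE and 11.16 in F/F (-0.91). Mylip, a target of the sterol-sensing liver X receptors (LXR) that degrades the LDL receptor, read 9.43 in ΔIE and 10.01 in F/F (-0.59). At 1.50025-fold, Mylip only just passed 1.5-fold. Pltp, which transfers phospholipid between lipoproteins and is an LXR target too, differed by -0.57. By contrast, Srebf1 and Lpcat3, also LXR targets, differed by -0.18 and 0.34. Of the synthesis genes, Hmgcs1 differed by -0.0048 and Sqle by 0.04. Nr1h3, the gene of LXRα, was below the filter on both arrays, at 6.04 in ΔIE and 6.02 in F/F.

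Macrophages express Abca1, Abcg1 and Apoe, and macrophage markers were lower on the same array. All 12 of 12 macrophage and monocyte markers were below 0, 10 of them at 1.5-fold, with a median of -1.07; their mean was 8.16 in ΔIE and 9.15 in F/F, and 0 were below the filter on both arrays. Within that list, differences ran from -1.48 (Itgam) to -0.26 (Cd163). In tissue RNA, fewer cells of a type and less RNA per cell cannot be told apart, and the part of macrophages in the Abca1 and Abcg1 differences was not tested.

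Of the drug efflux transporters, both that sit in the luminal membrane and were kept were above 0, and 1 of them passed 1.5-fold. Of all genes kept, 52.7% were above 0 and 4.37% were higher at 1.5-fold. Abcb1a, a mouse gene of P-glycoprotein, which expels a wide range of drugs and toxins from the epithelium, read 12.83 in ΔIE and 12.05 in F/F, a difference of 0.78 (1.71-fold higher, rank 276 from the highest). Its second probe set read 11.89 in ΔIE and 11.25 in F/F, a difference of 0.63, so both probe sets passed 1.5-fold. Abcg2, the breast cancer resistance protein, which exports drugs, urate and porphyrins, read 10.67 in ΔIE and 10.28 in F/F (0.39). Abcc1, which sits on the basolateral side and exports glutathione conjugates and leukotriene C4, lay on the other side of 0 at 9.12 in ΔIE and 9.39 in F/F (-0.26), and its second probe set gave -0.24. Neither Abcg2 nor Abcc1 reached 1.5-fold.

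Abcb1b, the second P-glycoprotein gene of the mouse, is the neighbour of Abcb1a. Its brighter probe set read 4.97 in ΔIE and 5.86 in F/F, below the filter on both arrays, and its other probe set, dimmer still, differed by 0.04, so no direction is given. Abcb4, the next gene along chromosome 5, which exports phosphatidylcholine into bile, read 5.47 in ΔIE and 5.41 in F/F, also below the filter. Of this cluster of 3 genes only Abcb1a was kept. Whether probes for such closely related genes take up each other's transcripts was not tested.

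Organic anion transporters of subfamily C went both ways, with Abcc4 the lowest. Abcc4, which exports cyclic nucleotides, prostaglandins and conjugated steroids, read 8.55 in ΔIE and 9.63 in F/F, a difference of -1.08 (2.11-fold lower, rank 553 from the lowest), by a single probe set. Abcc3, a basolateral exporter of bile salts and glucuronides, read 11.77 in ΔIE and 11.36 in F/F (0.42), also by a single probe set. Abcc10 differed by 0.35 and, by its second probe set, 0.24. Abcc2, the luminal exporter of conjugates, read 5.34 in ΔIE and 4.39 in F/F, below the filter on both arrays.

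Abcc5, an exporter of cyclic nucleotides and other anions, had 10 probe sets, the highest number in the family, and its brightest read 8.29 in ΔIE and 8.17 in F/F. Of its 6 probe sets that reached the filter, 5 differed by 0.00 to 0.28 and 1 by 0.69. The probe sets at 0.00 and at 0.69 are both of the type that can match several transcripts. Abcc6 and Abcc12 were below the filter on both arrays and differed by 0.39 each.

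Neither Abcb4, a phospholipid exporter, nor Abcb11, the bile salt export pump of the liver, reached the filter, and Abcb11 read 4.27 on both arrays. Other bile acid carriers, listed for comparison, lay mainly above 0, with 4 of 5 there, 3 of them past 1.5-fold, and a median of 0.95. This list shares Slc10a2 and Fabp6 with the small intestine markers given further on. Slc10a2, the apical sodium-dependent uptake carrier, read 9.29 in ΔIE and 8.19 in F/F, and Slc51a and Slc51b, subunits of the basolateral exporter, differed by 0.95 and 1.08. Abcc3, at 0.42, had the same sign as these.

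The 3 transporters linked to mitochondria and haem were above 0, as were 52.7% of all genes kept. Abcb6, which moves porphyrins, read 9.65 in ΔIE and 8.82 in F/F, a difference of 0.83 (1.77-fold higher, rank 234 from the highest), by a single probe set. Abcb10, an inner-membrane protein needed for haem synthesis in red cell precursors, differed by 0.10, and by 0.09 and 0.12 in its other probe sets. Abcb8, a mitochondrial transporter, read 8.14 in ΔIE and 7.96 in F/F (0.18), and 0.29 by its second probe set. Only Abcb6 of the 3 passed 1.5-fold. By their brightest probe sets, Abcb8 and Abcb10 lay inside the quartiles of all genes (-0.18 to 0.19).

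Genes of haem and iron-sulfur cluster synthesis, 14 kept, had a median of 0.14, with 9 above 0 and 5 below. Over the 13 that passed the filter on both arrays, 9 were above 0 and 4 below, with a median of 0.16. Alas1, the rate-limiting enzyme of haem synthesis outside red cells, read 11.63 in ΔIE and 10.87 in F/F (0.77). Flvcr1, a haem exporter, read 7.81 in ΔIE and 8.44 in F/F (-0.63). These were the 2 genes of the list past 1.5-fold, 1 in each direction.

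Peroxisomal Abcd3, which imports branched-chain fatty acids and bile acid precursors, read 12.41 in ΔIE and 11.91 in F/F, a difference of 0.49 (1.41-fold). Its second probe set, below the filter, read 5.76 in ΔIE and 4.65 in F/F. Abcd2, which imports very long-chain fatty acids, was below the filter on both arrays, and its 4 probe sets ran from -0.33 to 0.42. All 11 peroxisomal oxidation and assembly genes kept were above 0, with a median of 0.37, and 3 of them passed 1.5-fold. These were Pex11a (0.79), which acts in peroxisome division, and the beta-oxidation enzyme genes Acaa1b (0.72) and Ehhadh (0.70). Abcd3 lay within the range of that list, 0.17 to 0.79. Adipocyte markers, which share fatty acid handling, were also higher, with 6 of 6 kept above 0, a median of 0.85 and a mean of 8.65 in ΔIE against 7.91 in F/F; their part in these differences was not tested.

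No transporter of lysosomes and lamellar organelles that was kept reached 1.5-fold. Abca5 and Abcd4 lay below the lower quartile of all genes (-0.18). Abca3, which fills lamellar bodies with lipid in the lung, read 9.24 in ΔIE and 9.36 in F/F, and its second probe set gave -0.10 beside -0.12. Abca5, a lysosomal lipid transporter, read 6.68 in ΔIE and 7.14 in F/F (-0.46). Abcd4, which acts in lysosomal release of vitamin B12, differed by -0.20 and by -0.24 in its other probe set. Abcb9, a lysosomal peptide transporter, differed by 0.12. Abca2 was below the filter on both arrays at 5.38 in ΔIE and 5.43 in F/F.

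The subfamily E and F members, which act on ribosomes, all lay within 0.14 of 0. Abce1, which splits ribosomes after termination, read 9.59 in ΔIE and 9.61 in F/F, and its second probe set gave 0.17. Abcf1, a factor in translation initiation, differed by 0.14, with its 4 probe sets at the filter between 0.03 and 0.14. Abcf2 and Abcf3 differed by 0.04 and 0.12. The ribosome rescue and release factors that act with Abce1 (Pelo, Hbs1l, Etf1, Gspt1) likewise lay between -0.02 and 0.18.

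Abcc9, the regulatory sulfonylurea receptor of ATP-sensitive potassium channels in vessel walls and muscle, was lower by all 3 of its probe sets. The brightest read 8.84 in ΔIE and 9.63 in F/F, a difference of -0.79 (1.73-fold lower), and the others differed by -0.61 and -0.66. Kcnj8, the channel pore that pairs with it and its neighbour on chromosome 6, read 7.85 in ΔIE and 8.62 in F/F (-0.77). The other such pair went differently: Abcc8, the receptor of endocrine cells, was below the filter on both arrays at 5.18 in ΔIE and 4.42 in F/F, and its pore gene Kcnj11 differed by 0.17. Endothelial markers were lower on the same arrays, with 9 of 9 below 0, a median of -0.59 and a mean of 7.11 in ΔIE against 7.75 in F/F. Smooth muscle markers had 4 of 8 below 0, a median of 0.02 and a mean of 11.01 in ΔIE and 11.00 in F/F. Enteroendocrine markers had 9 of 11 above 0, a median of 1.10 and a mean of 8.83 in ΔIE against 8.10 in F/F. Over the 9 of them that passed the filter on both arrays, 7 were above 0 and the median was again 1.10. The part of these cells in the Abcc9, Kcnj8 and Abcc8 values was not tested.

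Abca12, which loads lipid into lamellar granules of the epidermis, read 6.79 in ΔIE and 5.75 in F/F by a single probe set. The F/F value is below the filter, so the gene was kept only through its higher ΔIE value and the size of the difference is uncertain. Markers of squamous epithelium lay on the other side of 0, with 8 of 9 kept below 0, a median of -1.21 and a mean over the 11 matched of 8.11 in ΔIE against 8.996 in F/F. Among them Krt14 read 10.81 in ΔIE and 12.40 in F/F, while Lor, a late cornification gene, read 6.16 in ΔIE and 5.56 in F/F. Like Abca12, Lor was kept only through its higher ΔIE value. The 7 squamous markers that passed the filter on both arrays were all below 0. Abca13 was below the filter on both arrays, and its 2 probe sets differed by -0.88 and -0.84. Abca4, the retinal transporter, was also below it.

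Abca8a belongs to a row of related genes on chromosome 11, in the order Abca8b, Abca8a, Abca9, Abca6 and Abca5. Abca8a read 8.40 in ΔIE and 7.73 in F/F, a difference of 0.66 (1.58-fold higher). The genes of this row that were also kept did not share the difference: Abca9 differed by -0.10 and Abca5 by -0.46. Abca8b and Abca6 were below the filter on both arrays and differed by 0.05 and 0, so no direction is given for them. Abcg3, a rodent relative of Abcg2, read 5.86 in ΔIE, below the filter, and 6.23 in F/F (-0.37), and its other probe set, below the filter on both arrays, differed by -1.08. Abca14 and Abca16 were below the filter as well and differed by 0.36 and 0.05.

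**Figure D3:**
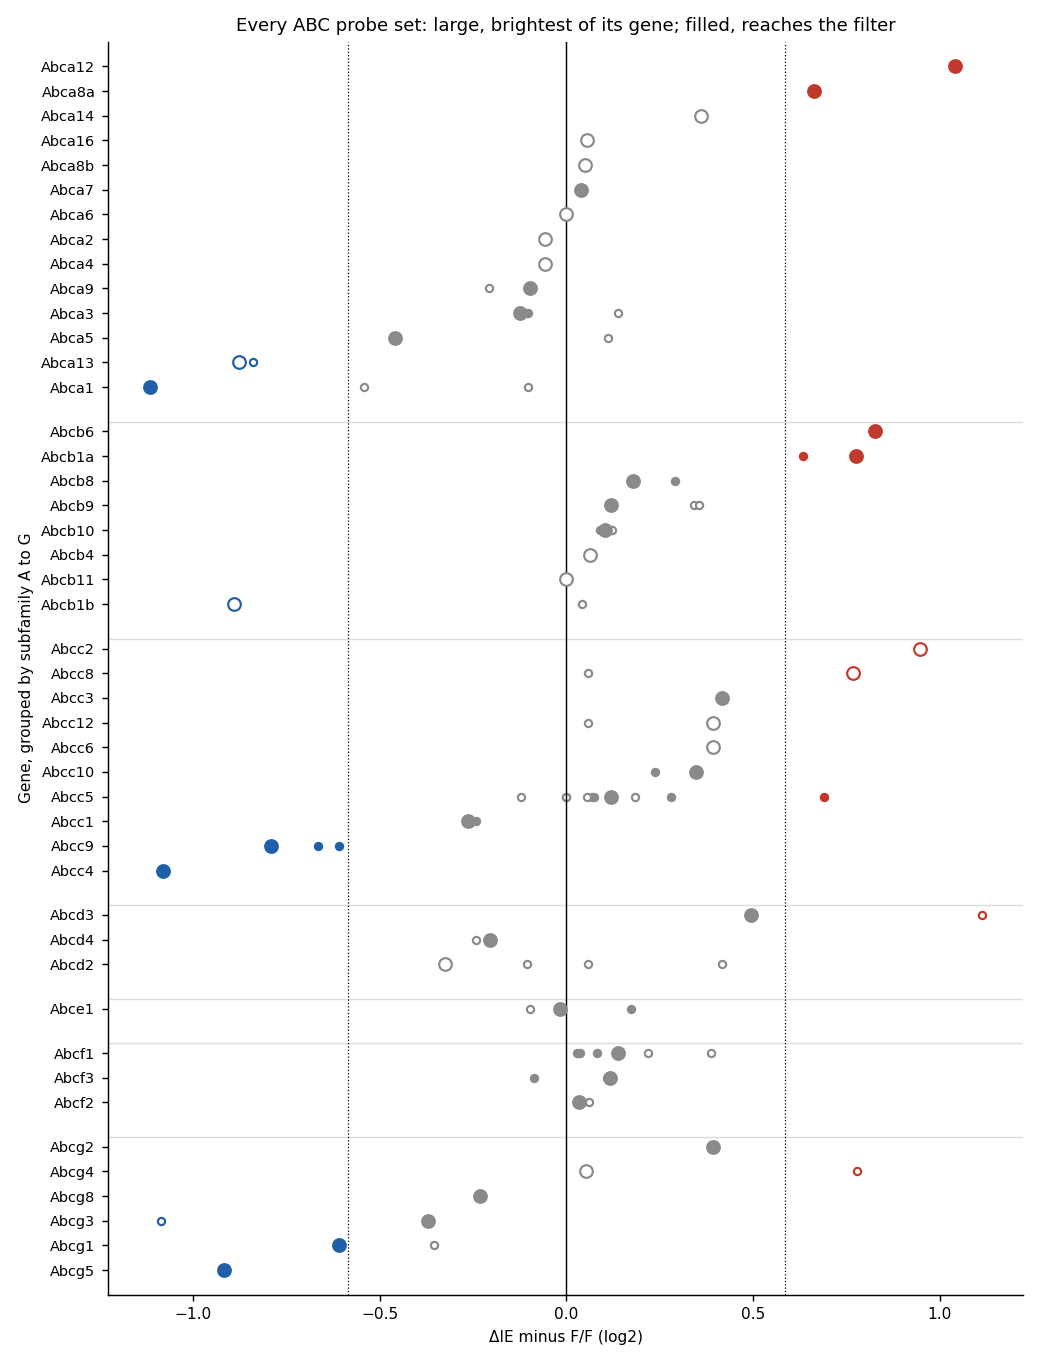
Differences, ΔIE minus F/F (log2, horizontal axis), of all 92 ABC probe sets, a row per gene grouped by subfamily. The large point is the brightest probe set of a gene, filled points reached the filter and open ones did not, and dotted lines mark 1.5-fold; the 3 Abcc9 points and the 2 Abcb1a points lie past these lines, while Abca1 passes them by its brightest probe set only.

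Probe sets of the same gene gave a measure of technical agreement, though not of variation between mice. In 11 ABC genes with at least 2 probe sets at the filter, the differences of the 2 brightest lay a median of 0.11 apart and at most 0.21 apart, and 9 of 11 had the same sign. Over 5110 genes of the array the median gap was 0.10 and the 95th percentile 0.41. Of the 9 ABC genes past 1.5-fold, 2 (Abcb1a and Abcc9) had a second probe set at the filter, and in both it passed 1.5-fold in the same direction. The other 7 rest on a single probe set at the filter. The 45 probe sets and 16 genes below the filter on both arrays enter no count in the main setting, though log2 differences are given for some. Of these probe sets 3, among them those of Abca6 and Abcb11, held the same value on both arrays.

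ABC proteins that carry other gene symbols were set beside the family. Cftr, the chloride channel of the epithelium and a subfamily C protein, read 9.56 in ΔIE and 8.89 in F/F, a difference of 0.67 (1.59-fold higher). Tap1 and Tap2, subfamily B proteins that load peptides onto class I molecules, read 8.74 and 8.13 in ΔIE against 9.18 and 8.46 in F/F, differences of -0.44 and -0.33. With Cftr counted, the subfamily C median was 0.12 in place of -0.07. With Tap1 and Tap2 counted, that of subfamily B was 0.12 in place of 0.18, and its genes no longer all lay above 0.

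Genes of transcription factors that act on ABC genes were above 0 more often than below. Of 15 listed, 13 were matched and 11 kept, 10 of them above 0, with a median of 0.35 and 5 past 1.5-fold. Nr1i2, the xenobiotic receptor PXR, which induces P-glycoprotein, read 8.78 in ΔIE and 8.18 in F/F (0.60). Nr1h4, the bile acid receptor FXR, read 10.57 in ΔIE and 9.72 in F/F (0.85). Ppara and Pparg, receptors for fatty acids, differed by 1.17 and 0.94, and Vdr, the vitamin D receptor, by 0.59 (1.504-fold, just past 1.5-fold). Ahr, the aryl hydrocarbon receptor, which induces Abcg2, was the exception at 9.38 in ΔIE and 10.12 in F/F (-0.74).

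**Figure D4:**
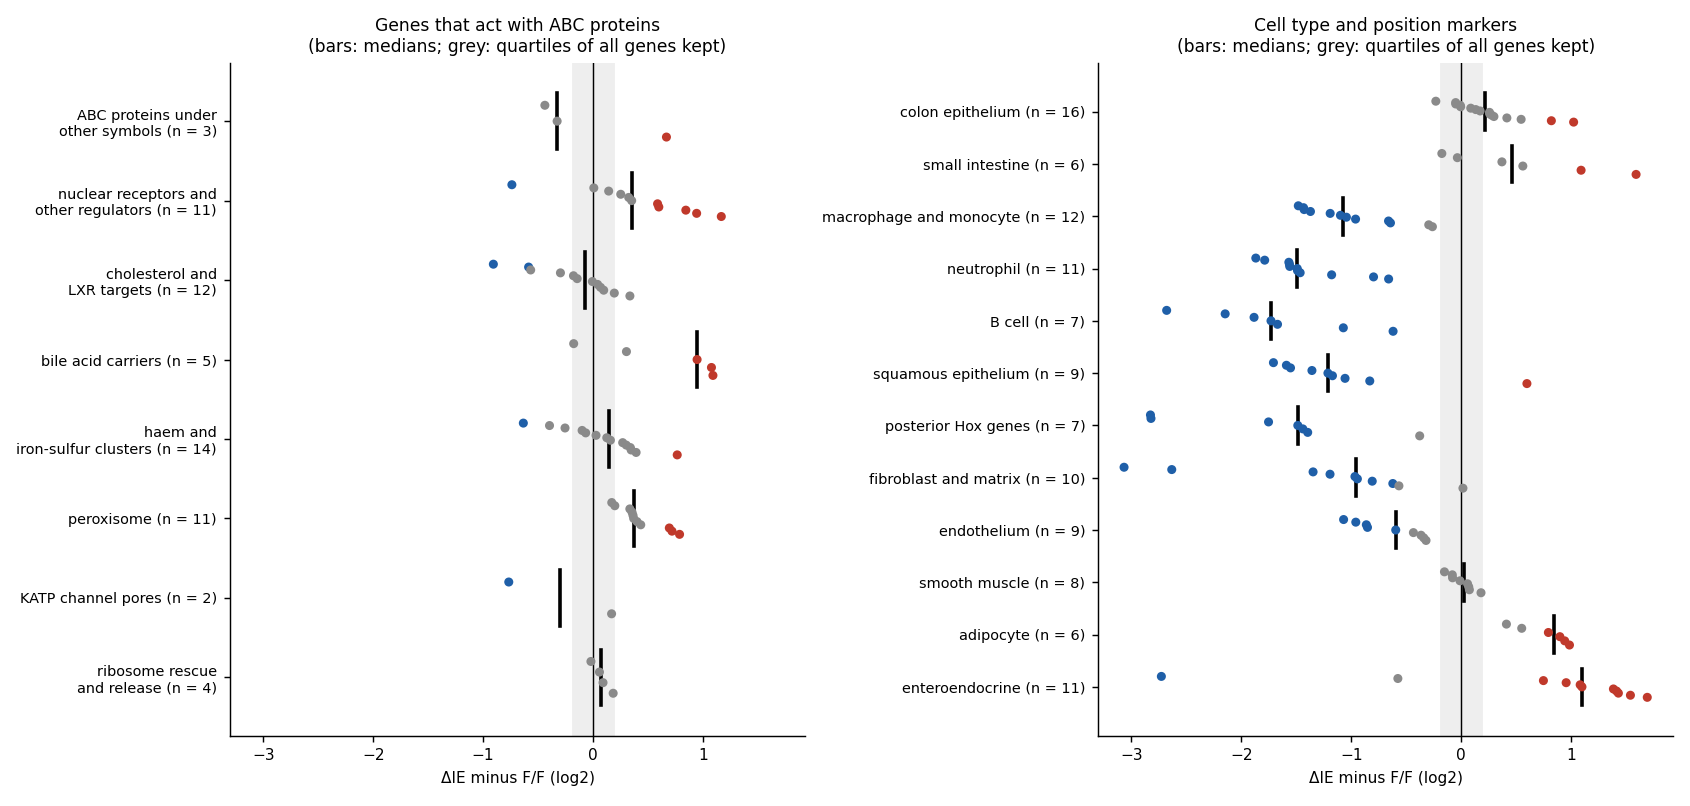
Differences, ΔIE minus F/F (log2, horizontal axis), of genes that act with ABC proteins (left panel) and of cell type and gut position markers (right panel); points are genes kept, bars are list medians, and red and blue mark 1.5-fold higher and lower. Bile acid carriers (median 0.95) and peroxisomal genes (0.37) lie to the right, while macrophage (-1.07), neutrophil (-1.49), B cell (-1.73), squamous (-1.21) and posterior Hox (-1.49) markers lie to the left. The small intestine row includes Pdgfb, which is no marker of that tissue, and shares Slc10a2 and Fabp6 with the bile acid carriers.

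Markers of position and composition differed on the same arrays as the transporters. The 7 posterior Hox genes kept were all below 0, with a median of -1.49 over those kept. Of these 7, 3 (Hoxa10, Hoxa13 and Hoxd11, whose value is the median) passed the filter on the F/F array only, and the 4 that passed on both had a median of -2.13. Over genes that passed on both arrays, 11 of 11 macrophage, 8 of 8 endothelial and 7 of 7 squamous markers were below 0, with medians of -1.04, -0.64 and -1.36. The 4 B cell markers that passed on both were all below 0 as well, with a median of -1.81. The Hox list had a mean over the 9 matched of 6.03 in ΔIE against 7.35 in F/F. Small intestine markers, 6 of 12 kept, had a median of 0.47 and a mean over all 12 of 6.40 in ΔIE against 6.11 in F/F, with 6 below the filter on both arrays. These values include Pdgfb (-0.03), a growth factor gene matched as a synonym of the listed symbol Sis, which is no small intestine marker. Over the 5 that passed on both arrays, Pdgfb among them, 3 were above 0 and the median was 0.37. Of the colon epithelium markers 11 of 16 were above 0, with a median of 0.22, among them Cdx2 at 11.51 in ΔIE and 10.49 in F/F. Over the 15 colon epithelium markers that passed on both arrays, 10 were above 0 and the median was 0.17. Neutrophil markers had a mean of 9.43 in ΔIE and 10.83 in F/F. B cell markers had a mean of 6.32 in ΔIE and 8.01 in F/F, and fibroblast and matrix markers 10.05 in ΔIE and 11.26 in F/F. Where along the colon each scraping was taken is not stated in the labels, and the part of position or composition in the differences of Abcb1a, Abcb6, Abcc4 and Abcg5 was not tested.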

How the data were processed

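Colon mucosal RNA was measured on 2 arrays, 1 per genotype, taken from the genotype label. The deposited values are log2 expression per probe set, computed by the authors with RMA in the affy package, per the submitters' processing notes; the sources used here give no versions, filters or list of arrays normalized together. RMA's quantile step draws the arrays' distributions together (here the sorted columns lie at most 0.16 apart), and RMA compresses differences of dim probe sets. Signal strength differs by probe set, so levels are not compared between genes. Depth does not apply to arrays, whose number limits the precision.

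Gene names came from the platform annotation, and all 45 member symbols matched the RefSeq gene table of GRCm38.p6 by Entrez ID. The 64 control probe sets and those with several symbols (932) or none (9211) were set aside. A gene took its probe set with the highest mean and was kept at 6.11 or above on either array. Genes were counted at 1.5-fold and 2-fold. Members and lists were chosen with earlier results of these data known. Named by rule were the members, the listed partners past 1.5-fold, ABC proteins under other symbols and channel pores. Of the markers past 2-fold, which the rule also allows, only Itgam, Krt14, Cdx2 and Hox genes are named, picked after their values were seen. Srebf1, Lpcat3, Pltp, Hmgcs1, Sqle, Nr1h3, Fabp6, Pdgfb, the ribosome factors, Lor and Cd163 were added after their values were seen. The gene summary was tested on simulated data. Alternatives were other probe set choices, filters, scalings and thresholds. Python 3.11.15, numpy 2.4.6, pandas 2.3.3, statsmodels 0.14.6 and matplotlib 3.10.9 were used.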

Additional observations from a re-analysis of the deposited data

How the results depend on the processing

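With 1 array per genotype no replicate could be left out and no paired analysis was possible because the groups share fewer than 2 numbers. Over 8 alternatives the count of ABC genes lower at 1.5-fold, 5 in the main setting, ran from 3 to 7. The count of genes higher, 4 in the main setting, ran from 3 to 6. The number of genes kept changed too. Without a filter, 7 of 45 ABC genes were lower and 6 higher, against 7.84% and 3.3% of all genes. With both arrays at the filter, 5 of 27 were lower and 3 higher, against 9.01% and 4.14%. With the filter at the 75th percentile, 3 of 17 were lower and 3 higher, against 9.42% and 4.86%. At 2-fold in the main setting, 2 of 29 were lower and 1 higher, against 5.3% and 1.15%. The family median, 0.04, ran from 0.03 to 0.12. Subfamily medians moved by more than 0.10 as follows. With probe sets averaged, subfamily A was 0.040 in place of -0.10, B 0.47 in place of 0.18 and D 0.29 in place of 0.15. Without probe sets ending in _s_at, _x_at or _a_at, B was 0.29 and D 0.49. Without a filter, C was 0.37 in place of -0.07 and D -0.20. At the 75th percentile, B was 0.78, C -0.26, D 0.49 and G 0.39 in place of -0.37, with fewer genes kept. With Cftr counted, C was 0.12. Each of these medians rests on 10 genes or fewer, and the sign of subfamilies A, C, D and G changed under at least 1 of them. Of 59 values of the 9 genes past 1.5-fold under the alternatives, 58 moved by less than 0.41 and none changed sign; Abca1 with its 3 probe sets averaged (-0.59 in place of -1.12) was the exception in size. Both limits, the median and the 95th percentile of the gap between a gene's 2 brightest probe sets, were set after values had been seen. Abcg1 lay under 1.5-fold after median centring (-0.57) and with probe sets averaged (-0.48). Of the genes named, those within 1 log2 unit of the filter are the least certain in size, because RMA gives no detection call.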
